A study of Mus musculus with 37 samples.

Results

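Complex IV of the respiratory chain, cytochrome c oxidase, was described through the 10 genes that encode the alternative forms of its tissue-dependent subunits. They were taken from the deposited table by gene symbol, 10 of the 56748 genes listed, and form 5 pairs. In 3 pairs a heart-type gene stands beside a general one, Cox6a2 with Cox6a1, Cox7a1 with Cox7a2 and Cox8b with Cox8a. In the other 2 pairs a low, oxygen-responsive form stands beside the general one, Cox4i2 with Cox4i1 and Ndufa4l2 with Ndufa4. The study asked how the mouse heart responds to resuscitated cardiac arrest over the following week. Bulk RNA-seq was made from left ventricular tissue of young adult C57BL/6J mice of both sexes, and the series' design text calls the material homogenized ventricles. All animals received isoflurane. Naïve mice [n = 5 libraries] were neither intubated nor injected. Adr mice, which the labels call sham, were ventilated and given intraventricular saline and then adrenaline. Arrest mice were given intraventricular potassium chloride, held in asystole for several minutes, and resuscitated with adrenaline and chest compressions. Adr and Arrest hearts were taken after 0.5 d, 1 d, 3 d or 7 d [n = 4 libraries in each of these 8 groups]. Because every Arrest animal also received adrenaline, Arrest against Naïve joins arrest, ventilation, injection and adrenaline. Arrest and Adr hearts share ventilation, injection and adrenaline, and differ by arrest together with potassium chloride in place of saline and chest compressions.

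Cytochrome c oxidase takes electrons from cytochrome c and passes them to oxygen, and pumps protons across the inner mitochondrial membrane while it does so. Its catalytic core is encoded by mitochondrial DNA, and the smaller nuclear subunits around it tune assembly, dimerization and regulation. Several of these nuclear subunits exist as a ubiquitous form and a form found in heart and skeletal muscle, which replaces it as muscle matures. Cox4i1 encodes the general form of the largest nuclear subunit, and Cox4i2 a form best known in lung and in cells that sense oxygen. Ndufa4 was first assigned to complex I and is now counted with complex IV, and Ndufa4l2 is a hypoxia-inducible relative of it.

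The coordinates below are those of the deposited table, whose genome build is not given in the sources used here. Cox6a2 lies at 7:127804607-127805559, Cox7a1 at 7:29883569-29885503 and Cox8b at 7:140478858-140480359, so all 3 heart-type genes are on chromosome 7. Cox6a1 lies at 5:115483701-115487040, Cox7a2 at 9:79662643-79667160 and Cox8a at 19:7192518-7194981. Cox4i1 lies at 8:121394961-121400946, Cox4i2 at 2:152596093-152606957, Ndufa4 at 6:11900291-11907496 and Ndufa4l2 at 10:127350836-127353023. All 10 are annotated as protein coding.

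The pair members are related in sequence but not close enough to share reads. In the GENCODE vM21 transcripts the coding sequences were identical at 72.4% of aligned bases for Cox6a2 and Cox6a1, 72.2% for Cox7a1 and Cox7a2, 76.8% for Cox8b and Cox8a, 76.7% for Cox4i2 and Cox4i1, and 77.7% for Ndufa4l2 and Ndufa4. The longest run of bases shared exactly by the transcripts of a pair was 10 for Cox8b and Cox8a, 12 for both the Cox6a and the Cox7a pair, and 14 for Cox4i2 and Cox4i1. It was 28 for Ndufa4l2 and Ndufa4, within the coding sequence of both, and is shown because it is the stretch in which a read could least well be told apart. The reads were 150 bases long.
Run shared by Ndufa4l2 and Ndufa4: gctgggacagaaagaacaacccagagcc

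Copies elsewhere were looked for with exact words of 50 bases from the protein-coding transcripts of each gene. Of the 10 genes, 8 had no other gene holding 5% or more of their words. Emc8, the neighbour of Cox4i1 on the chromosome, held 12.3% of the words of Cox4i1, and its level did not exceed 1.06% of that of Cox4i1 in any library. A pseudogene, AC148174.2, held 12.3% of the words of Cox6a1, and its level did not exceed 0.297% of that of Cox6a1.

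Promoter sequence, from 250 bases before to 50 after the annotated start, was given by RefSeq [GRCm38.p6] for 6 of the 10 genes: Cox6a1, Cox7a1, Cox7a2, Cox8a, Cox8b and Ndufa4. Printed here are those of the general-form genes that passed the test in the 1 d Arrest hearts (Cox6a1, Cox7a2 and Ndufa4), and that of Cox8b, the heart-type gene with the highest fold change there. Capitals mark matches on either strand to 4 short motifs: the ETS core CCGGAAG, the NRF-1 core GCATGCGC, the TATA box TATAAA and the hypoxia response core ACGTG. The ETS core was found in 8.86% of all 32851 promoters of this length, the NRF-1 core in 2.71%, TATAAA in 13.6% and ACGTG in 19.6%. The sequences run 5′ to 3′ in the direction of the gene. They lie at chr5:115348909-115349208, minus strand, for Cox6a1, at chr9:79759804-79760103, minus strand, for Cox7a2, at chr6:11907401-11907700, minus strand, for Ndufa4, and at chr7:140900397-140900696, minus strand, for Cox8b.
Cox6a1: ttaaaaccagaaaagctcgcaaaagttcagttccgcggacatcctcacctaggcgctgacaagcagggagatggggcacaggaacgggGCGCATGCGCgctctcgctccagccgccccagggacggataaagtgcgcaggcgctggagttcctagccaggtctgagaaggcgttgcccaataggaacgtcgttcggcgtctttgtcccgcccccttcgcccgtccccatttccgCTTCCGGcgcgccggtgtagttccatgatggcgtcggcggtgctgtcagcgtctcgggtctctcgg
Cox7a2: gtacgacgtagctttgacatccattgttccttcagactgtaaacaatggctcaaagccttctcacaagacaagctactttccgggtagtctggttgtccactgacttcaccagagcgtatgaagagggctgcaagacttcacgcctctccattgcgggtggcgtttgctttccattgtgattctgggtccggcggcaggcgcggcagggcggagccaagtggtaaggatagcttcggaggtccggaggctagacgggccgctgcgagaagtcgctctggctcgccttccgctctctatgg
Ndufa4: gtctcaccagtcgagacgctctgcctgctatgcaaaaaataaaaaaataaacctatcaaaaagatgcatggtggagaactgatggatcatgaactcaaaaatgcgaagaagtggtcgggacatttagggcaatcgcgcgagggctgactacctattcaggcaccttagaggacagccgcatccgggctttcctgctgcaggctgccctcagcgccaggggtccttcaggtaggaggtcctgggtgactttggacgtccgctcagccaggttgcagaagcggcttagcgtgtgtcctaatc
Cox8b: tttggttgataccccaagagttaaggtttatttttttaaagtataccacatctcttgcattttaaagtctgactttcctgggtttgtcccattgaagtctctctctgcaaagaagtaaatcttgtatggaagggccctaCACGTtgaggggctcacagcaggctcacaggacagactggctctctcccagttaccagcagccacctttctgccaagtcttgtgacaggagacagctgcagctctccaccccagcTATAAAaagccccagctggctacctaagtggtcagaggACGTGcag

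The promoter of Cox6a1 held the NRF-1 core on both strands, as 2 overlapping matches that begin 160 and 162 bases before the start, and the ETS core 16 bases before it. Its G and C content was 63%, against a median of 52.7% over all promoters. The promoters of Cox7a2 [56.7% G and C] and Ndufa4 [53%] held none of the 4 motifs in this window. The promoter of Cox8b [48.3%] held TATAAA 4 bases after the annotated start, and ACGTG on 1 strand or the other 111 bases before and 42 bases after it. Of the 2 promoters not printed, that of Cox8a [56%] held 2 matches to the ETS core, 5 bases before and 32 after the start, and that of Cox7a1 [53%] held ACGTG on the opposite strand 9 bases after it. These matches describe the letters in the window and no binding was measured.

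The libraries held 13.197 to 30.1799 M fragments counted on genes [median 14.9423 M]. Behind the values of the high members stood at least 1006 fragments a library, and behind those of Cox4i2 and Ndufa4l2 93 to 371 and 128 to 794 fragments, so the latter carry the larger counting error. Replicate 3 of the 3 d Adr group stood apart. Its mitochondrially encoded RNA was 9.36% of fragments, against 26.0% to 28.1% in the other libraries of its group. Its summed level of 8 cardiomyocyte markers was 3793 FPKM, against 13440 to 15910 in Naïve hearts, and its 8 leukocyte markers summed to 2182 FPKM, against 259.6 to 453.4. A 3 d Adr sample was excluded for quality in the study's own work, and since the labels do not say which, all 4 were kept, and values without replicate 3 are given beside the results it touches. Among the Naïve libraries, replicate 4 listed 13475 genes above 0, against 16297 to 16925 in the others. The heart label held in all groups, with the 8 cardiomyocyte markers summing to at least 8753 FPKM in every library but the 3 d Adr replicate 3. The fast skeletal muscle markers, whose tissue also uses the heart-type forms, summed to at most 5.091 FPKM and Myh4 was listed at 0 throughout. Brown fat is known as another site of Cox8b and Cox7a1, and the 6 fat markers summed to at most 30.65 FPKM.

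In the Naïve heart the heart-type gene was the more abundant partner in all 3 of its pairs (FPKM, fragments per kilobase of gene length scaled to depth, which allows levels of different genes to be compared). Cox6a2, the heart and muscle form of subunit 6a, stood at 1657, 1916, 1900, 2037 and 1575 FPKM in the 5 Naïve libraries. Cox6a1, its ubiquitous partner, stood at 129, 131, 148, 173 and 107 FPKM in the same libraries. The ratio of Cox6a2 to Cox6a1 was 13.4 ± 1.28 [SD, n = 5], the most one-sided of the heart-type pairs. Cox8b stood at 799, 1409, 1436, 1363 and 608 FPKM, and Cox8a, the form used in most tissues, at 176, 167, 179, 132 and 169 FPKM. Their ratio was 6.97 ± 2.82. Cox8b was low in replicates 1 and 5, which had the lowest ratios [4.53 and 3.59], and Cox8a was low in replicate 4, which had the highest [10.3]. Cox7a1 stood at 679, 1034, 1298, 1397 and 824 FPKM and Cox7a2 at 442, 457, 427, 487 and 394 FPKM, a ratio of 2.36 ± 0.609. Naïve replicates 1 and 5 were therefore the lowest of the 5 libraries for Cox7a1 and Cox8b, and also for Cox6a2 and its general partner Cox6a1. Cox7a2 and Cox8a did not share that order.

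The oxygen-responsive forms were minor in every library. Cox4i1 stood at 970, 943, 1041, 926 and 1034 FPKM in Naïve hearts, with the narrowest spread of the 10 genes relative to its mean [983 ± 52.3]. Cox4i2 stood at 17.4, 21.2, 10.4, 16.6 and 19.4 FPKM, so that it made up 1.71% ± 0.440 of the pair. Ndufa4 stood at 605, 606, 680, 754 and 623 FPKM and Ndufa4l2 at 14.1, 19.1, 23.1, 12.7 and 21.8 FPKM, or 2.73% ± 0.740 of the pair. The deposited gene lengths were longer than the annotated principal transcript for 8 of the 10 genes, by up to 2.26 times for Ndufa4 and 2.03 times for Cox4i1, and equal to it for Cox6a2 and Cox8b. With the transcript lengths the Naïve mean ratio would be 10.9 for Cox6a2 to Cox6a1, 2.24 for Cox7a1 to Cox7a2, 6.20 for Cox8b to Cox8a, 0.00925 for Cox4i2 to Cox4i1 and 0.0146 for Ndufa4l2 to Ndufa4. This rescaling was chosen after seeing the data, and it leaves every difference between groups as it is.

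**Figure D1:**
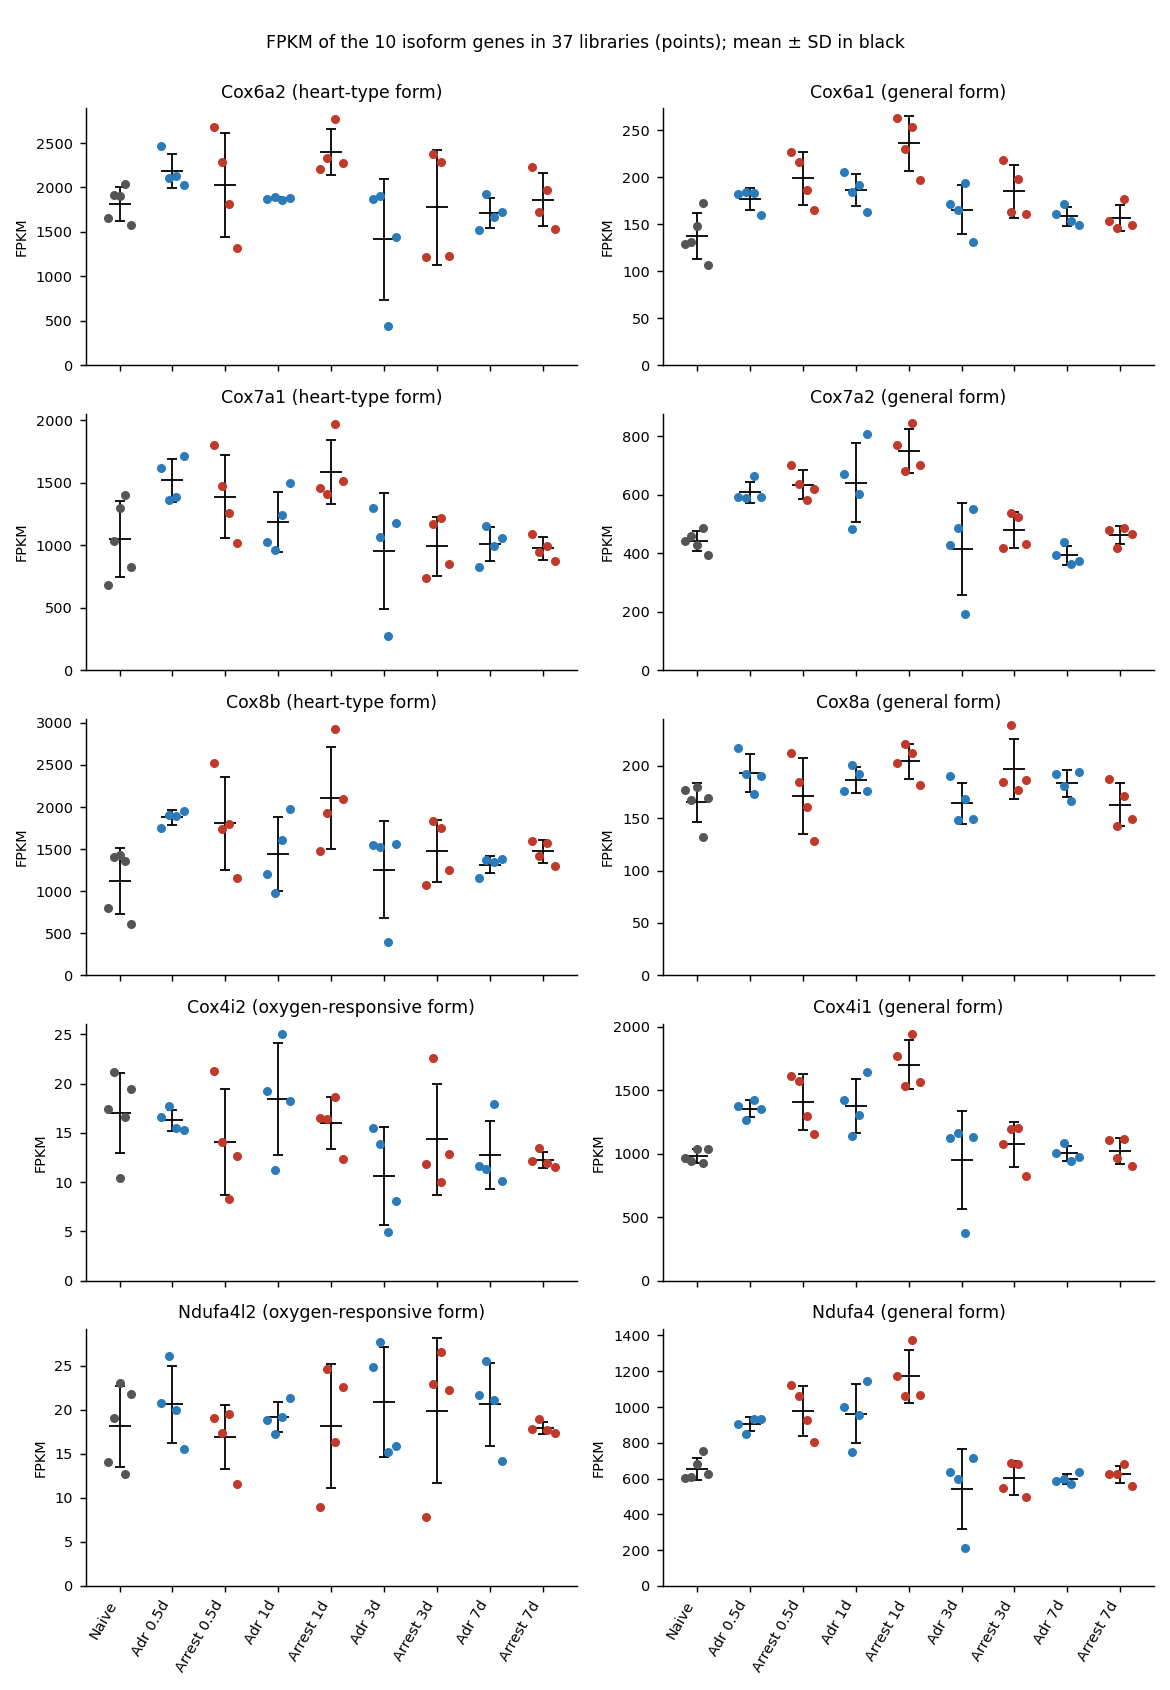
FPKM (linear axes from 0) of the 10 genes in the 37 libraries, with 1 point a library, the mean and SD in black, Naïve in grey, Adr in blue and Arrest in red; each row is a pair, with the heart-type or oxygen-responsive gene on the left. The general forms Cox6a1, Cox7a2, Cox4i1 and Ndufa4 reach their highest group means, 235.8, 748, 1703 and 1171 FPKM, in the 1 d Arrest hearts, and the lowest point of Cox6a2, 443 FPKM, is the 3 d Adr library that stands apart.

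Across the 9 groups, the 1 d Arrest group had the highest mean for 8 of the 10 genes, the exceptions being Cox4i2 [highest in 1 d Adr, 18.4 FPKM] and Ndufa4l2 [highest in 3 d Adr, 20.9 FPKM]. The highest group mean exceeded the lowest by 1.69 times for Cox6a2, 1.71 for Cox6a1, 1.66 for Cox7a1, 1.91 for Cox7a2, 1.87 for Cox8b, 1.26 for Cox8a, 1.74 for Cox4i2, 1.79 for Cox4i1, 1.24 for Ndufa4l2 and 2.17 for Ndufa4. The order was gradual. For 7 genes, every one of the 8 pairs of neighbouring groups overlapped in their libraries. For Cox7a2 and Cox4i1 there was 1 gap, between 0.5 d Adr and 3 d Arrest, and for Ndufa4 1 gap, between 0.5 d Adr and Naïve. Cox4i1 and Ndufa4 each ran Arrest 1 d, Arrest 0.5 d, Adr 1 d and Adr 0.5 d from the top, and Cox7a2 had the same 4 groups on top with Adr 1 d second.

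Against Naïve hearts, 8 of the 10 genes had a positive log2 fold change in the 1 d Arrest hearts. Of the 10 genes, 4 rose and none fell at a limma adjusted p of at most 0.05, and the 4 were among the 5 general forms: Cox6a1, Cox7a2, Cox4i1 and Ndufa4, but not Cox8a. Over all 16530 genes tested, 7.11% passed in either direction in this comparison and 3.88% as higher. The median log2 fold change was 0.70 over the 10 genes and 0.03 over all genes tested.

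Cox6a1 was 263, 230, 253 and 197 FPKM in the 1 d Arrest libraries, all above the highest Naïve library [173 FPKM]. Its log2 fold change was 0.78 ± 0.13 (SE), or 1.72-fold, with a limma adjusted p of 0.000673. Cox4i1 was 1767, 1537, 1944 and 1564 FPKM, again above every Naïve library, and rose by 0.79 ± 0.21 on the log2 scale with a limma adjusted p of 0.0188. Cox7a2, the general form of subunit 7a, was 771, 679, 844 and 700 FPKM, against at most 487 in Naïve hearts. It rose by 0.76 ± 0.18 with a limma adjusted p of 0.00999. Ndufa4 was 1176, 1061, 1377 and 1069 FPKM, with no overlap with the Naïve libraries. It rose by 0.84 ± 0.21, or 1.79-fold, with a limma adjusted p of 0.0124.

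The heart-type forms did not pass in the same comparison. Cox8b had the highest fold change of the 10 genes, 0.94 ± 0.31, with a limma adjusted p of 0.0599. Its 1 d Arrest libraries, 1477, 1927, 2922 and 2091 FPKM, lay above all 5 Naïve libraries but spread widely. Cox7a1 was 1460, 1407, 1968 and 1515 FPKM in the 1 d Arrest hearts [log2 fold change 0.64 ± 0.29, limma adjusted p = 0.183]. Cox6a2 was 2203, 2329, 2775 and 2278 FPKM [0.40 ± 0.28, limma adjusted p = 0.427]. The 1 d Arrest libraries of Cox7a1 and Cox6a2, too, all lay above the highest Naïve library [1397 and 2037 FPKM]. The remaining general form, Cox8a, was 202, 221, 212 and 182 FPKM, above at most 179 FPKM in Naïve hearts, and also missed the threshold [0.31 ± 0.13, limma adjusted p = 0.130]. The share of all genes whose libraries lay wholly apart from Naïve is not given, here or in the comparisons below. In this comparison an unadjusted limma p up to 0.05 was held by 7 of the 10 genes and by 21.7% of all genes. Passing for a general form and not for its heart-type partner does not show that the 2 differ, and the ratios below test that directly. The oxygen-responsive forms had log2 fold changes of -0.07 ± 0.26 (Cox4i2) and -0.05 ± 0.27 (Ndufa4l2), with limma adjusted p of 0.928 and 0.943, and their libraries overlapped those of Naïve hearts.

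Without the 3 d Adr replicate 3 in the model, which enters only through the shared spread, 6 of the 10 genes rose in the 1 d Arrest hearts, Cox7a1 [limma adjusted p = 0.0254] and Cox8b [0.00878] being added, where 10.3% of all genes passed. Fewer of the 4 calls were left without Arrest 1 d replicate 3 (Cox6a1 and Cox7a2), without Arrest 1 d replicate 1 (all but Cox4i1, limma adjusted p = 0.0567), after quantile normalization (Cox6a1 and Ndufa4, with log2 fold changes of 0.49 and 0.51) and with the trend on gene length removed (all but Cox4i1). The labels give each sample a number whose meaning is not stated, 70 to 95 in the 1 d Arrest and 116 to 127 in the Naïve group, so what it stands for and the group cannot be told apart, and with it as a covariate none of the 4 passed [log2 fold changes 0.57 to 0.96, limma adjusted p from 0.119 to 0.264].

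**Figure D2:**
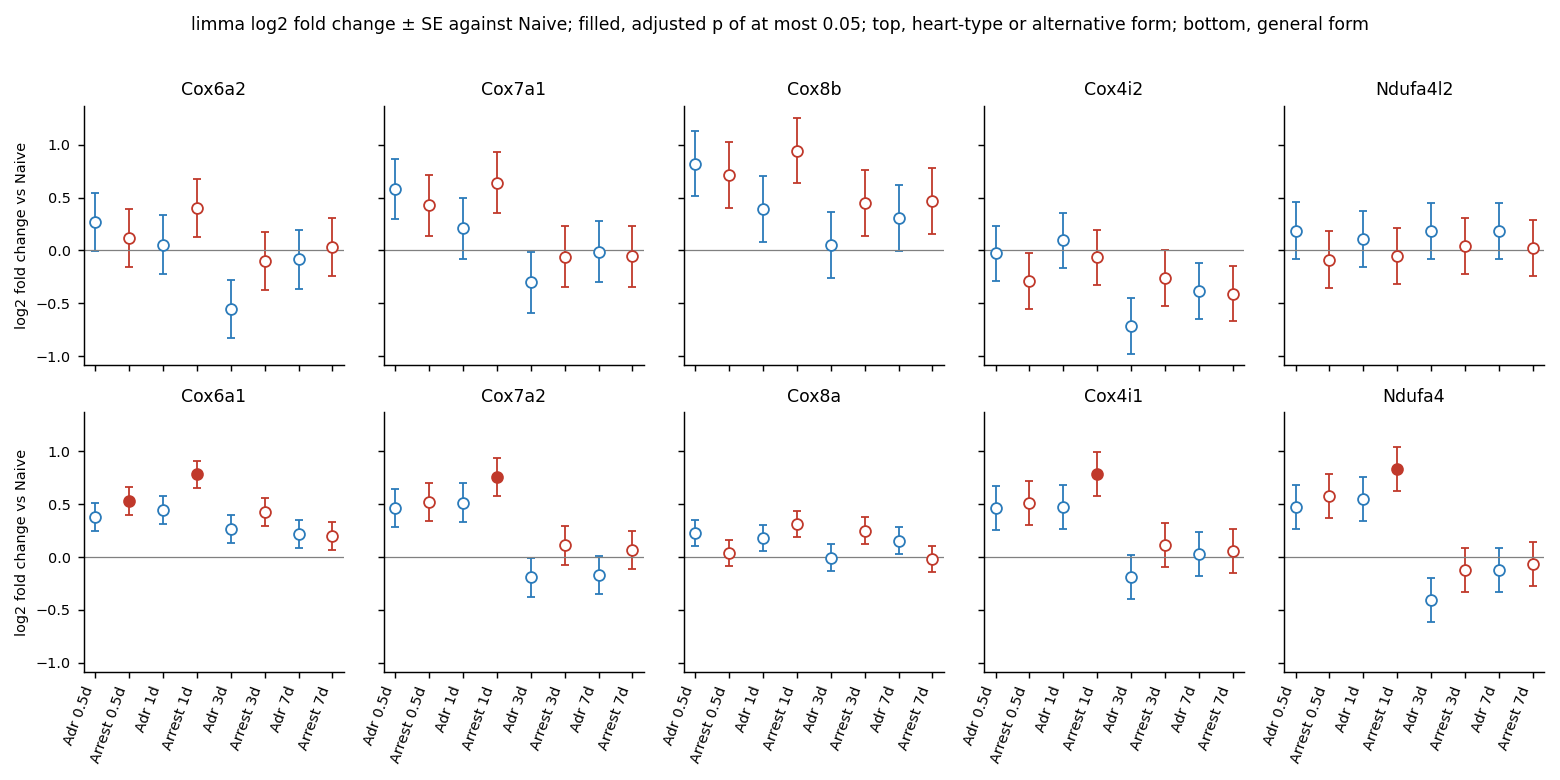
Log2 fold change against Naïve (limma, ± SE) for each gene in the 8 Adr (blue) and Arrest (red) groups; filled circles mark an adjusted p of at most 0.05, the upper row holds the heart-type and oxygen-responsive genes and the lower row their general partners. Filled circles are found in the lower row, for Cox6a1 at 0.5 d [0.53] and 1 d [0.78] after arrest and for Cox7a2 [0.76], Cox4i1 [0.79] and Ndufa4 [0.84] at 1 d.

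At 0.5 d after arrest, Cox6a1 rose [227, 216, 186 and 165 FPKM, log2 fold change 0.53 ± 0.13, limma adjusted p = 0.0228], and 3 of its 4 libraries lay above all Naïve libraries. It was the 1 call among the 10 genes, where 3.21% of all genes passed in either direction and 1.75% as higher. Cox7a2 [0.52 ± 0.18], Cox4i1 [0.51 ± 0.21] and Ndufa4 [0.57 ± 0.21] had similar sizes without passing, with limma adjusted p of 0.107, 0.181 and 0.119. For these 3 genes every 0.5 d Arrest library lay above every Naïve library, but how many of all genes did so is not given. An unadjusted limma p up to 0.05 was held here by 5 of the 10 genes and by 18.2% of all genes. The call for Cox6a1 was lost when Naïve replicate 5, Arrest 0.5 d replicate 1 or Arrest 0.5 d replicate 2 was left out, when only these 2 groups were fitted, under quantile normalization [log2 fold change 0.35], with the length trend removed [0.38, limma adjusted p = 0.143] and with the sample number as a covariate [0.46, limma adjusted p = 0.0716]. Without the 3 d Adr replicate 3, all 4 genes rose in this comparison, with limma adjusted p from 0.00443 to 0.00954, where 5.51% of all genes passed.

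Of the 10 genes, 9 had a positive log2 fold change in the 0.5 d Adr hearts and 10 in the 1 d Adr hearts, with medians of 0.42 and 0.30, against 0.04 over all genes at both times. None of the 10 genes passed in any Adr group against Naïve, where 0.188% of all genes passed at 0.5 d, 0.69% at 1 d, 0% at 3 d and 0% at 7 d with limma. Before adjustment, 5 of the 10 genes had a limma p up to 0.05 at 0.5 d, 4 at 1 d, 2 at 3 d and 0 at 7 d, and so did 2312, 2430, 2295 and 1017 of all genes. Cox6a1 had the lowest adjusted p of the 10 genes, at 1 d, where its libraries held 205, 184, 192 and 163 FPKM and 3 of the 4 lay above all Naïve libraries [0.45 ± 0.13, limma adjusted p = 0.0910]. Ndufa4 was 905, 848, 934 and 930 FPKM at 0.5 d and 999, 749, 957 and 1148 FPKM at 1 d, so the first of these groups lay wholly above Naïve and the second overlapped it by 1 library. Its log2 fold changes were 0.47 ± 0.21 and 0.55 ± 0.21, with limma adjusted p of 0.295 and 0.202. Cox4i1 was 1378, 1267, 1421 and 1355 FPKM at 0.5 d and 1424, 1137, 1309 and 1643 FPKM at 1 d, both groups lying above all 5 Naïve libraries. Cox8b was 1749, 1909, 1891 and 1958 FPKM at 0.5 d [log2 fold change 0.82 ± 0.31, limma adjusted p = 0.219], also above all Naïve libraries.

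Without the 3 d Adr replicate 3 in the model, some of these differences passed. At 0.5 d Cox7a2 [0.46], Cox4i1 [0.46] and Ndufa4 [0.47] rose with limma adjusted p of 0.0325, 0.0355 and 0.0372, where 1.35% of all genes passed. At 1 d Cox6a1 [0.45], Cox7a2 [0.52], Cox4i1 [0.48] and Ndufa4 [0.55] rose with limma adjusted p of 0.0451, 0.0144, 0.0223 and 0.0121, where 2.52% of all genes passed. The Adr and Arrest comparisons against Naïve share the same 5 Naïve libraries.

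None of the 10 genes passed at 3 d after arrest, where 0.139% of all genes did, or at 7 d, where 0% did with limma. Their median log2 fold changes were 0.07 and 0.03. Before adjustment, 1 of the 10 genes had a limma p up to 0.05 at 3 d and 0 at 7 d, and so did 2269 and 852 of all genes. Cox6a1 was the member furthest from Naïve by its test at 3 d after arrest [218, 163, 198 and 160 FPKM, log2 fold change 0.43 ± 0.13, limma adjusted p = 0.138]. In the 3 d Adr group, the replicate 3 library held 443 FPKM of Cox6a2, 276 of Cox7a1, 395 of Cox8b, 374 of Cox4i1, 213 of Ndufa4 and 193 of Cox7a2. In the same library Cox6a1 [194 FPKM] and Cox8a [168 FPKM] lay within the range of the rest of the group or above it. The log2 fold change of Cox6a2 in that group was -0.56 with this library and -0.07 without it, that of Ndufa4 -0.41 and -0.01, and that of Cox4i2 -0.72 and -0.43.

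Between Arrest and Adr hearts of the same time, which share ventilation, injection and adrenaline, none of the 10 genes passed. The limma adjusted p values were 1.0 at 0.5 d, 0.709 to 0.944 at 1 d, 0.906 to 0.975 at 3 d and 1.0 at 7 d. Over all genes 0% passed at 0.5, 1 and 3 d and 0.00605%, a single gene, at 7 d, while 638, 1090, 888 and 416 genes had an unadjusted limma p up to 0.05. Of the members, Cox6a1 at 1 d was the single case [log2 difference 0.34 ± 0.14, limma adjusted p = 0.709, and 0.0206 before adjustment]. The log2 difference of Cox8b at 1 d was larger but less certain [0.56 ± 0.33]. The 4 atrial markers had a median log2 difference of -2.71 at 1 d, with 3 negative, 1 positive and none passing. The median over the 10 genes was 0.30 at that time, and -0.13, 0.29 and 0.00 at 0.5, 3 and 7 d. The 3 d median included the library that stands apart. Without it, the 3 d differences of Cox6a2, Cox8b, Cox4i1, Cox7a1, Ndufa4 and Cox7a2 changed sign, from 0.24 to 0.46 with it to between -0.28 and -0.03 without it.

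From 1 to 7 d after arrest, Cox6a1 and Ndufa4 were the 2 genes of the 10 that passed, both higher at 1 d. Over all genes 1.89% passed in either direction and 1.14% as higher at 1 d. Ndufa4 went from 1176, 1061, 1377 and 1069 FPKM to 627, 623, 681 and 560 FPKM, without overlap [0.90 ± 0.22, 1.87-fold, limma adjusted p = 0.0256]. Cox6a1 went from 263, 230, 253 and 197 to 154, 146, 176 and 149 FPKM, also without overlap [0.59 ± 0.14, limma adjusted p = 0.0233]. Cox7a2 [0.69 ± 0.19] and Cox4i1 [0.73 ± 0.22] fell short with limma adjusted p of 0.0530 and 0.0735. Both calls were lost when Arrest 1 d replicate 1 or 3, or Arrest 7 d replicate 1, 2 or 4, was left out, with the length trend removed, and with the sample number as a covariate [limma adjusted p = 0.185 for Cox6a1 and 0.0681 for Ndufa4]. Cox6a1 alone was kept when Arrest 7 d replicate 3 was left out or no filter was set, and Ndufa4 alone under quantile normalization. Without the 3 d Adr replicate 3 in the model, 5 genes passed, Cox7a1, Cox7a2 and Cox4i1 being added. The same contrast in the Adr groups gave no call among the 10 genes [0.0423% of all genes], and Ndufa4 and Cox7a2 passed there without that library [0.67 and 0.69, limma adjusted p = 0.00970 and 0.00561].

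The ratio within a pair asks whether the 2 forms moved by different amounts in the same library. It was taken from the FPKM values of each library and compared on the log2 scale with an exact two-sided permutation test. All comparisons with Naïve share its 5 libraries. Of 40 such comparisons, 8 had an exact permutation p of at most 0.05 and none an adjusted p of at most 0.05, the lowest adjusted value being 0.127. With 4 against 5 libraries the smallest p these tests can give is 0.00794.

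The lowest p values were those of the Cox6a pair, in which the ratio of heart-type to general form was lower than in Naïve hearts. Against Naïve ratios of 12.8, 14.6, 12.8, 11.8 and 14.8, the 1 d Arrest libraries had 8.38, 10.1, 11.0 and 11.6, all below the lowest Naïve library. The log2 difference was -0.39, or 0.765-fold, with an exact permutation p of 0.0159 and an adjusted p of 0.127. The 1 d Adr libraries had 9.15, 10.2, 9.71 and 11.6, again all below Naïve [-0.39, exact permutation p = 0.0159, adjusted p = 0.127]. The 7 d Adr libraries, at 9.45, 11.3, 10.9 and 11.6, lay below Naïve as well [-0.30, exact permutation p = 0.0159, adjusted p = 0.127]. At 0.5 d after arrest the ratios were 11.8, 10.6, 9.79 and 7.98 [-0.42, exact permutation p = 0.0159, adjusted p = 0.127]. The 3 d Adr libraries had 10.9, 11.6, 2.28 and 11.0, a log2 difference of -0.83 with all 4 libraries and -0.25 without replicate 3 [exact permutation adjusted p = 0.127 and 0.247]. The 0.5 d Adr libraries were nearest to Naïve and overlapped them, with 13.5, 11.4, 11.6 and 12.8 [-0.11, exact permutation p = 0.230]. At 3 d after arrest the ratios spread from 5.59 to 14.6 [-0.53, exact permutation p = 0.0873]. At 7 d after arrest the ratios, 14.5, 11.8, 11.2 and 10.3, overlapped Naïve and the log2 difference was -0.17 [exact permutation p = 0.143].

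The other heart-type pairs gave no exact permutation p of at most 0.05 against Naïve. Cox7a1 to Cox7a2 was 2.36 ± 0.609 in Naïve hearts and between 1.86 ± 0.236 [1 d Adr] and 2.58 ± 0.323 [7 d Adr] elsewhere, with exact permutation p from 0.167 to 0.714. The log2 difference of the 3 d Adr group was -0.11 with its replicate 3 and 0.08 without it. Cox8b to Cox8a was higher than the Naïve mean in all 4 libraries of the 0.5 d Adr, 0.5 d Arrest, 1 d Arrest and 7 d Arrest groups. Its log2 differences there were 0.59, 0.68, 0.63 and 0.49, with exact permutation p of 0.167, 0.0952, 0.151 and 0.254. The Naïve ratios of this pair ran from 3.59 to 10.3 and so took in most of the other libraries. Added over the 3 pairs, the heart-type forms exceeded the general forms 5.33 ± 0.920 times in Naïve hearts, and between 4.44 ± 0.389 [1 d Adr] and 5.71 ± 0.338 times [0.5 d Adr] in the others. The replicate 3 of the 3 d Adr group had the lowest summed ratio, 2.01, and without it the mean of that group was 5.55 ± 0.484 in place of 4.66 ± 1.81. The Cox8b to Cox8a difference in that group was 0.06 with this library and 0.56 without it [exact permutation p = 0.929 and 0.196].

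The mean log2 ratio of Cox4i2 to Cox4i1 was lower than in Naïve hearts in all 8 other groups, Adr and Arrest alike, and that of Ndufa4l2 to Ndufa4 in 4 of 8, those of 0.5 and 1 d. Cox4i2 to Cox4i1 was 0.0180, 0.0224, 0.01002, 0.0179 and 0.0188 in Naïve hearts and 0.00932, 0.0107, 0.00960 and 0.00789 at 1 d after arrest. The log2 difference was -0.86 [exact permutation p = 0.0238, adjusted p = 0.159], and 3 of 4 libraries lay below all Naïve libraries, of which replicate 3 was itself low. At 0.5 d after arrest it was -0.82 [exact permutation p = 0.0317, adjusted p = 0.181]. In the Adr hearts the differences of this pair were -0.49, -0.38, -0.60 and -0.44 from 0.5 to 7 d [exact permutation p = 0.0714, 0.222, 0.0952 and 0.183, and -0.68 at 3 d without replicate 3], and at 3 and 7 d after arrest -0.39 and -0.49 [0.238 and 0.0873]. Ndufa4l2 to Ndufa4 was 0.0233, 0.0315, 0.0339, 0.0168 and 0.0350 in Naïve hearts and 0.0170, 0.0164, 0.0211 and 0.0144 at 0.5 d after arrest [-0.67, exact permutation p = 0.0397, adjusted p = 0.198]. At 1 d after arrest it was 0.00765, 0.0232, 0.0119 and 0.0212 [-0.90, exact permutation p = 0.0556, adjusted p = 0.247], the spread being that of Ndufa4l2. In the 0.5 and 1 d Adr hearts the differences of this pair were -0.27 and -0.43 [exact permutation p = 0.302 and 0.119]. In the 3 d Adr hearts it was 0.03885, 0.0464, 0.0717 and 0.0223, with 3 of 4 libraries above all Naïve libraries, the highest being the library that stands apart [0.60, exact permutation p = 0.167, and 0.34, p = 0.375, without it].

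Of 20 comparisons of the ratios between Arrest and Adr at the same time, 1 had an exact permutation p of at most 0.05. Cox8b to Cox8a at 7 d was 8.49, 9.98, 9.19 and 8.73 after arrest and 6.05, 7.59, 8.11 and 7.17 after adrenaline alone, without overlap. The log2 difference was 0.34, with an exact permutation p of 0.0286, the smallest that 4 against 4 can give, and an adjusted p of 0.429. Neither gene differed by itself at that time, with log2 differences of 0.16 for Cox8b and -0.18 for Cox8a [limma adjusted p = 1.0 for both]. At 1 d the ratio of Cox6a2 to Cox6a1 differed between Arrest and Adr by 0.01 on the log2 scale [exact permutation p = 0.971].

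**Figure D3:**
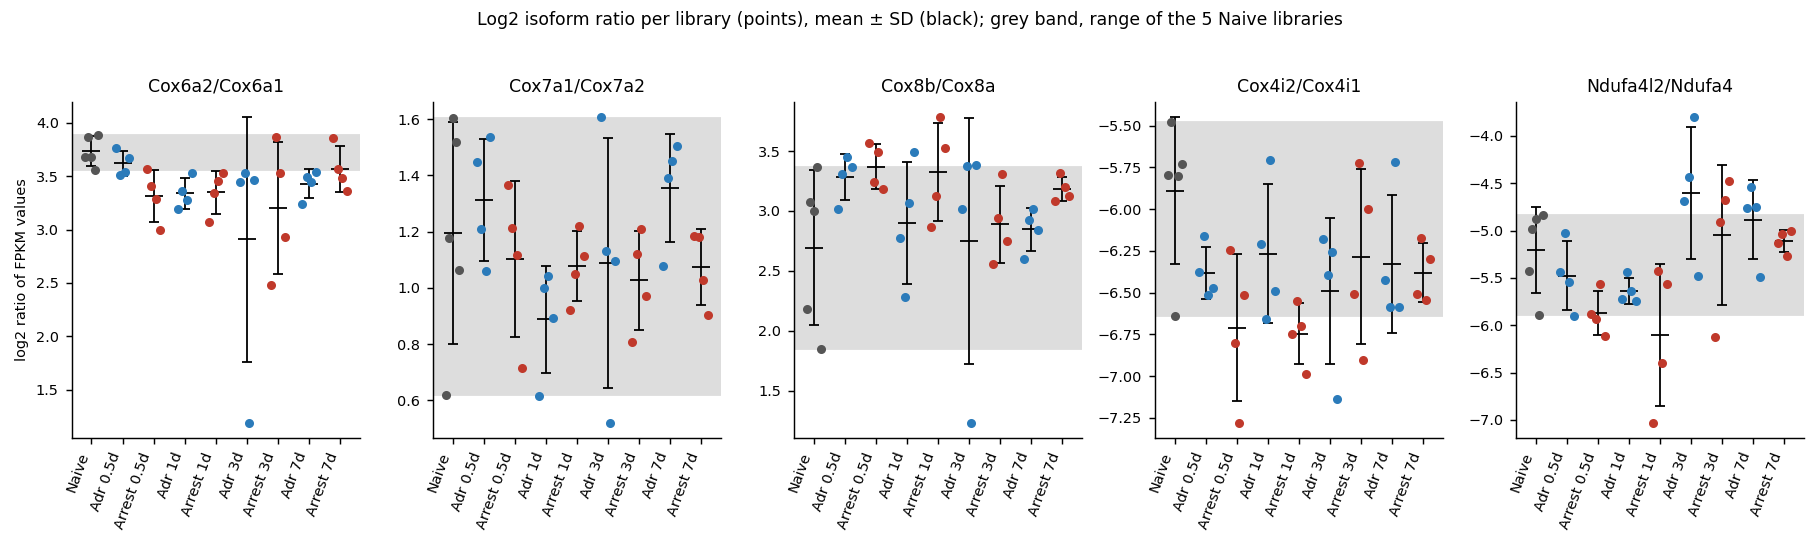
Log2 of the FPKM ratio of each pair in the 37 libraries (points), with the mean and SD of each group in black and the range of the 5 Naïve libraries as a grey band. For Cox6a2/Cox6a1 the points of the 1 d Adr, 3 d Adr, 7 d Adr and 1 d Arrest groups lie below the band, the lowest being the 3 d Adr library with a ratio of 2.28, while for Cox7a1/Cox7a2 and Cox8b/Cox8a the band takes in most points.

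Among the other subunits of complex IV, 3 of 11 rose and none fell in the 1 d Arrest hearts: Cox7b [1088 ± 123 against 572 ± 46.8 FPKM, log2 fold change 0.92 ± 0.22, limma adjusted p = 0.01004], Cox6b1 [1184 ± 225 against 674 ± 156 FPKM, 0.83 ± 0.22, limma adjusted p = 0.0190] and Cox7c [764 ± 81.6 against 505 ± 46.8 FPKM, 0.60 ± 0.19, limma adjusted p = 0.0445]. Each is a small nuclear subunit with no heart-type partner. Over all genes, 3.88% passed as higher in this comparison. When the 3 d Adr replicate 3 was left out, 6 of the 11 rose, Cox5a, Cox5b and Cox6c being added. The median of the 11 was 0.60, with 9 positive. Among those that did not pass were Cox5b [0.65, limma adjusted p = 0.0672], mt-Co2 [0.96, 0.129], mt-Co3 [1.04, 0.313] and Cox7a2l [-0.08, 0.801]. Of these, mt-Co2 and mt-Co3 are a part of the mitochondrially encoded core. Cox7a2l, listed with the subunits here, is known as a factor that joins complex IV to complex III, and its function in this strain was not examined. The genes mt-Co3 and Cox7a2l were chosen after their values were seen. All mitochondrially encoded RNA made up 26.7%, 22.5%, 27.3% and 21.7% of fragments in the 1 d Arrest libraries, against 25.2% to 30.9% in Naïve hearts. Of the 11, 1 passed between 1 and 7 d after arrest, Cox7b [0.90, limma adjusted p = 0.0361], where 1.14% of all genes passed as higher at 1 d, and 6 passed without the 3 d Adr replicate 3.

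**Figure D4:**
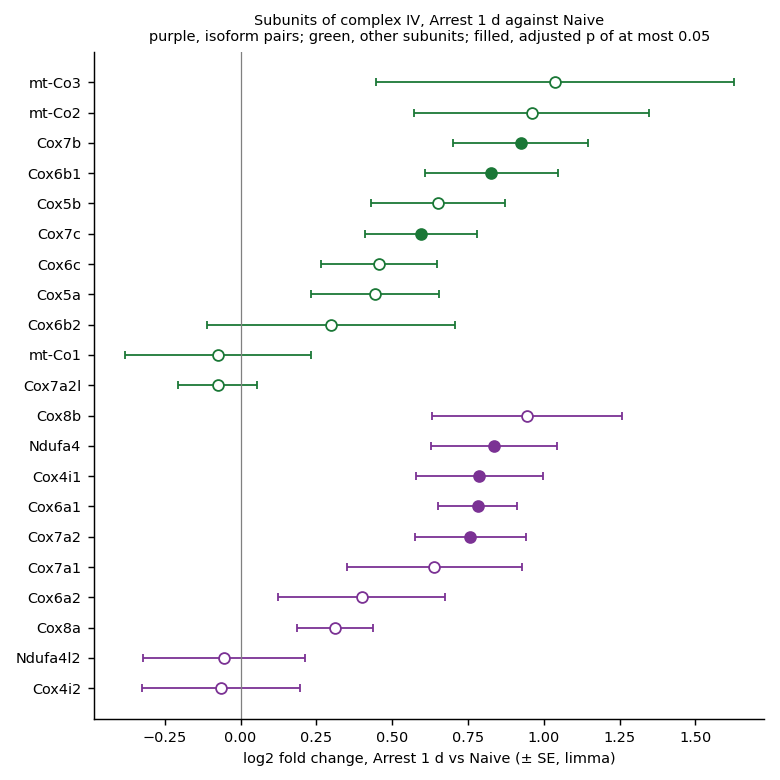
Log2 fold change of the 21 genes listed for complex IV subunits, Cox7a2l and Ndufa4l2 among them, in 1 d Arrest against Naïve hearts (limma, ± SE). Isoform pairs are in purple and the other listed genes in green, filled where the adjusted p is at most 0.05. The 7 filled points lie between 0.60 and 0.92, and Cox8b [0.94], mt-Co2 [0.96] and mt-Co3 [1.04] lie beyond them with wider errors.

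Of 27 assembly and accessory factors of complex IV, 25 were tested, 4 rose and none fell at 1 d after arrest, with a median of 0.29, against the same 3.88% of all genes. The 4 were Cox19 [17.8 ± 1.13 against 10.2 ± 1.22 FPKM, 0.75 ± 0.14, limma adjusted p = 0.00181], a copper-route factor of the intermembrane space, Coa3 [0.45 ± 0.13, 0.0262], Coa8 [0.51 ± 0.15, 0.0361] and Higd2a [0.65 ± 0.20, 0.0474], which takes part in assembly of the enzyme and its supercomplexes. Cox14 was the 1 gene added without the 3 d Adr replicate 3.

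Genes known as targets of hypoxia-inducible factor, a list fixed because Cox4i2 and Ndufa4l2 are regulated by oxygen, had no common direction. Of 22, 1 rose and 3 fell at 1 d after arrest, with a median of 0.03. Over all 16530 genes tested, 641 rose and 535 fell in this comparison. Bnip3, a mitophagy receptor, rose from 51.01 ± 6.29 to 163 ± 66.3 FPKM [1.53 ± 0.43, limma adjusted p = 0.0244]. The 3 that fell were Apln, the ligand apelin [-2.09 ± 0.41, 0.00239], Hk2, a hexokinase [-1.08 ± 0.25, 0.00728], and Pdk1, a kinase that restrains pyruvate dehydrogenase [-0.55 ± 0.17, 0.0477]. Muscle isoform genes outside complex IV, such as Fabp3 [4445 ± 952 against 2750 ± 696 FPKM, 0.71 ± 0.30, limma adjusted p = 0.157] and Pfkm [-0.37 ± 0.25, 0.417], gave no call among 10, with a median of 0.09.

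The lists of cell type markers show what else moved in the same comparison, where 641 of all 16530 genes tested rose and 535 fell. In bulk tissue, fewer cells of a type and less RNA per cell cannot be told apart. Of 8 cardiomyocyte markers none passed [Ryr2 -0.63 ± 0.20, limma adjusted p = 0.0516, and Myl2 0.50 ± 0.31, 0.363], and their sum ran from 15840 to 18560 FPKM at 1 d after arrest against 13440 to 15910 in Naïve hearts. Of 8 pericyte markers, whose cells are known to express Cox4i2 and Ndufa4l2, 1 fell [Abcc9, 33.4 ± 4.35 to 14.4 ± 2.20 FPKM, -1.16 ± 0.24, limma adjusted p = 0.00370], with a sum of 195.6 to 229.6 against 221.9 to 253.5 FPKM. Of 6 smooth muscle markers 1 fell [Myh11, -0.90 ± 0.25, limma adjusted p = 0.0227]. Of 7 endothelial markers 2 fell [Kdr, -0.92 ± 0.22, limma adjusted p = 0.0107, and Cdh5, -0.42 ± 0.11, 0.0181]. The other 5 had positive log2 fold changes, and the median over the 7 was 0.13. The endothelial markers summed to 153.2 to 222.2 FPKM, against 191.9 to 204.2 in Naïve hearts. None of 6 fibroblast markers passed [Lum -0.91 ± 0.30, limma adjusted p = 0.0583, and Dcn 0.57 ± 0.22, 0.116], with 3 positive, 3 negative and a median of 0.04. None of 6 leukocyte markers tested of 8 [S100a8 1.98 ± 0.68, limma adjusted p = 0.0691, and Itgam 0.67 ± 0.33, 0.241] or 4 atrial markers [Nppa 1.18 ± 0.62, 0.271, and Myl7 -0.77 ± 1.255, 0.785] passed. The median over the 6 leukocyte markers was 0.68, with 5 positive and 1 negative. The 8 summed to 258.1 to 388.2 FPKM, against 259.6 to 453.4 in Naïve hearts. Over the 4 atrial markers the median was 0.18, with 3 positive and 1 negative. Of 4 fast skeletal markers tested of 6, Mylpf fell [2.49 ± 1.499 to 0.571 ± 0.431 FPKM, -1.06 ± 0.32, limma adjusted p = 0.0384]. Of 3 fat markers tested of 6, none passed, Cidea being 26.2 ± 4.46 against 16.7 ± 4.28 FPKM [0.64 ± 0.28, limma adjusted p = 0.156], and the 6 summed to 20.7 to 30.65 against 12.35 to 24.33 FPKM. The calls of the hypoxia and cell type lists were kept without the 3 d Adr replicate 3, and Ryr2 and Lum [limma adjusted p = 0.00183 and 0.0446] fell and Fabp3 [0.0395] rose in addition. The part of these cell types in the levels of the 10 genes was not tested.

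Over the 37 libraries, the genes whose levels ran most like each member were found by Spearman's rho, as a description of libraries that share depth and composition. Ndufa4 ran closest to Cox7b [rho = 0.975], then Gpx4 [0.949] and Atp5l [0.945]. Cox4i1 ran with Ndufa7 [0.947], Uqcr10 [0.938] and Timm8b [0.931], Cox7a2 with Atp5l [0.923], Atp5e [0.920] and Ndufc1 [0.919], and Cox8b with Atp5o [0.923], Cox6b1 [0.920] and Ndufa3 [0.920]. Cox7a1 ran with Uqcrq [0.932], Ndufa3 [0.917] and Cox5b [0.911], and Cox6a2 with Myl3 [0.9004], a myosin light chain of the ventricle, Ndufb10 [0.899] and Cox5b [0.890]. The nearest genes of these 6 members were thus mostly small subunits of the respiratory complexes, among them general forms and heart-type forms alike. Cox6a1 had weaker neighbours, Tm2d2 [0.794], Eif4a1 [0.769] and Capzb [0.758], none of them a respiratory chain subunit. Cox8a [Alkbh7 0.669, Dok7 0.666, Pdcl3 0.656], Cox4i2 [Gm14121 0.656, Ube2a 0.620, Gm12404 0.607] and Ndufa4l2 [Clec3b 0.651, Zfp709 0.626, Timm13 0.623] had weaker ones still. Within the pairs rho was 0.760 for Cox7a1 and Cox7a2, 0.465 for Cox6a2 and Cox6a1, 0.393 for Cox8b and Cox8a, 0.325 for Cox4i2 and Cox4i1 and -0.0685 for Ndufa4l2 and Ndufa4. With the 3 d Adr replicate 3 left out these were 0.740, 0.529, 0.374, 0.267 and -0.134, and among the genes named for Ndufa4l2 Timm13 [0.657] and Zfp709 [0.654] then came before Clec3b [0.630].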

How the data were processed

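The authors deposited 1 table of FPKM values per gene for 37 libraries, made from paired reads aligned with HISAT2; the counting tool and annotation are not given in the sources used here. FPKM carries no depth by itself, but every value was a whole multiple of 1 fragment (within 0.01), which gave the depth of each library. Values were divided by a median-ratio factor, which was 1.0131 in every library since the deposited FPKM values already carried such a scaling, put on the log2(FPKM + 1) scale, which understates changes of low genes, filtered (at least 0.5 FPKM in 4 libraries, 16530 genes) and fitted across all 9 groups with limma 3.58.1 (empirical Bayes with trend), with Benjamini-Hochberg adjustment per comparison. Ratios were tested by exact permutation with scipy 1.17.1. Alternatives were other scalings, filters, pseudocounts, weights, covariates, group subsets and left-out libraries. The fit was tested on simulated data. All members are named in each comparison; of each other list, up to 4 genes past the threshold in 1 d Arrest against Naïve by adjusted p, else up to 2 of smallest p; and the 3 nearest genes of each member. The members and lists were chosen with earlier results of these data known. The labels do not state separate animals, so p-values measure the spread between these samples. No pair of libraries within a group agreed within sampling noise (58 pairs). Sequences came from RefSeq and GENCODE vM21.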

Additional observations from a re-analysis of the deposited data

Results flagged for a closer look

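A library far from the others of its group was found in 8 of the 135 sets of 4 or 5 values examined, where chance gives about 1 in 20. The 3 d Adr replicate 3 accounted for 3 of them, with Cox8b at 395.0 FPKM (the next library at 1529), Cox4i1 at 373.6 FPKM (1125) and a Cox6a2/Cox6a1 ratio of 2.282 (10.89). This library also held 9.36% of its fragments on mitochondrially encoded genes, 3793 FPKM of summed cardiomyocyte markers and 2182 FPKM of summed leukocyte markers, and the part of these in its isoform ratios was not tested. In the 0.5 d Adr group, Cox6a1 was low in replicate 4 at 159.4 FPKM (181.8) and Cox7a2 high in replicate 3 at 662.8 FPKM (591.3). Cox8a was low in Naïve replicate 4 at 132.3 FPKM (166.9), the library with the fewest genes above 0 [13475], and high in 3 d Arrest replicate 2 at 239.1 FPKM (186.6). The Cox4i2/Cox4i1 ratio was high in 7 d Adr replicate 3 at 0.01896 (0.01163).

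Of 20 ratio tests between Arrest and Adr at the same time, 1 was flagged by its unadjusted p, and it did not pass after adjustment. This was the Cox8b/Cox8a ratio at 7 d, higher in Arrest than in Adr by 0.3372 on the log2 scale in 4 of 4 libraries [exact permutation p = 0.02857 before and 0.429 after adjustment].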

How the results depend on the processing

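Counts of members past the threshold depended on the processing as follows; where no cause is named, the cause was not tested. Quantile normalization gave 0 at 0.5 d Arrest against Naïve, 2 at 1 d Arrest and 1 for 1 against 7 d after arrest, and turned the log2 fold change of Cox6a2 at 1 d Arrest to -0.0108. Scaling by the fragments counted on genes gave 3 at 1 d Adr, 4 at 0.5 d Arrest and 1 for 1 against 7 d in Adr. Removing the length trend gave 0 at 0.5 d Arrest and 0 for 1 against 7 d after arrest, and omitting the filter gave 1 there. Sample quality weights gave 4 at 0.5 d Adr, 3 at 1 d Adr, 3 at 0.5 d Arrest, 2 for 1 against 7 d in Adr and 6 after arrest, with Cox4i2 at 0.00525 at 1 d Arrest. The description number as a covariate gave 0 at 0.5 d Arrest, 0 at 1 d Arrest and 0 for 1 against 7 d after arrest, and 34 in place of 1176 genes in all at 1 d Arrest. Fitting only the 2 groups compared gave 1 at 0.5 d Adr, 2 at 0.5 d Arrest and 5 for 1 against 7 d after arrest. Without the 3 d Adr replicate 3 there were 3 at 0.5 d Adr, 4 at 1 d Adr, 4 at 0.5 d Arrest, 2 for 1 against 7 d in Adr and 5 after arrest. Leaving out each replicate of the groups compared gave 0 to 1 at 0.5 d Arrest, 2 to 5 at 1 d Arrest, 0 to 2 for 1 against 7 d after arrest and 0 elsewhere, with Cox4i2 between -0.22 and 0.0458 and Ndufa4l2 between -0.22 and 0.23 at 1 d Arrest.

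The replicate numbers do not pair the samples: deviations of same-numbered libraries correlated by -0.0081 on average, and 7 of 37 libraries correlated best with their own number. With the replicate block, 4 members passed at 1 d Arrest, as without it, 768 in place of 1176 genes in all were called, and Ndufa4l2 stood at 0.0177.

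For the ratio results followed through the alternatives, a part of all ratio tests, none changed direction or side of the threshold, but none had passed. Outside that part, leaving out the 3 d Adr replicate 3 changed signs. The Cox7a1/Cox7a2 difference of 3 d Adr against Naïve went from -0.11 to 0.08. Between Arrest and Adr at 3 d, Cox6a2/Cox6a1 went from 0.30 to -0.28 and Cox8b/Cox8a from 0.14 to -0.37. The sample number was not used as a covariate for the ratios. Depth limits Cox4i2 and Ndufa4l2 [93 and 128 fragments at the lowest], and with 4 libraries a group the ratio tests could not pass the adjustment singly. On the transcript lengths, a setting added after the data were seen, the Naïve mean ratios of the Cox6a, Cox4i and Ndufa4 pairs moved by more than 1 SD.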
